A study of Homo sapiens with 4 samples.

Results

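The genes described here are PTPN11, which encodes the tyrosine phosphatase SHP2, and 8 genes whose products work beside it between growth factor receptors and RAS: the docking proteins GAB1 and FRS2, the adaptors GRB2, SHC1 and GRB10, the exchange factor SOS1, and the GTPases NRAS and HRAS. They were chosen by name. Every non-control probe that the array listed under one of these names was kept, which gave 9 of 30982 gene names, 18 of 41000 probes and 54 of 43376 spots. PTPN11 had 4 probes, GAB1 and GRB2 had 3 each, GRB10 and SHC1 had 2 each, and the others had 1 each. The question was whether the partners of PTPN11 changed with it after miR-489 transfection, and how the same probes read after another miRNA, miR-504.

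RNA was taken 72 h after transfection from FaDu, a line of hypopharyngeal squamous cell carcinoma, and HSC3, a line of tongue squamous cell carcinoma. Each of 4 arrays set miR-489 or miR-504 transfectants (Cy5, red) against control-miRNA transfectants of the same line (Cy3, green), with 1 array for each line and miRNA, all on 1 slide. Dyes were not swapped, so a dye effect stays in a ratio against control and cancels in the difference between the miRNAs. The labels give no separate cultures, and the lines served as the replicates of each miRNA (n = 2). The p-values and standard errors (SE) rest on the spread between FaDu and HSC3, which limma moderates with a prior drawn from all probes. The main fit did not pair the arrays of a line. The labels also do not say whether both arrays of a line shared a control RNA.

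Of the squamous markers listed for this work, all 8 with a probe were well above background in the control channel of both lines, among them KRT5, KRT14 and TP73L, the array's name for TP63. Of 5 markers of blood and endothelial cells, PTPRC, CD3E, PECAM1 and CDH5 were not above background, whereas CD14 was (mean Cy3 signal 72.8 in FaDu and 50.5 in HSC3). Control signals were well above background on 58.2 to 59.2% of spots of an array and transfectant signals on 61.2 to 62.6%, and no spot was saturated. Replicate spots of a probe had an SD of 0.0887 to 0.108 in log2 ratio, taken over the probes spotted repeatedly. GAPDH, used as a reference gene, had a mean log2 ratio of 0.97 after miR-489 and 0.85 after miR-504, both called by limma, and a difference of 0.13 between the miRNAs (adjusted p = 0.603). Probes of ACTB, the other reference gene, differed by 0.059 to 0.14 between the miRNAs, and 0 of its 4 probes was called.

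When a receptor tyrosine kinase is activated, GRB2 brings SOS1 to the membrane, directly or through SHC1 and FRS2, and SOS1 loads RAS with GTP. GAB1, once phosphorylated, binds SHP2 through its SH2 domains and opens the phosphatase, which is needed for full RAS and ERK activation by most growth factors. GRB10 is an adaptor of another kind: it binds activated insulin and IGF receptors and mostly restrains their signal.

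The mature miRNAs are shown because the arrays differ by which of them was added. The sequences come from RefSeq (GRCh38.p14), are written 5′ to 3′, and carry the seed (bases 2 to 8) in capitals. The labels do not name the arm of miR-504, so both arms are given.
hsa-miR-489-3p: gUGACAUCacauauacggcagc
hsa-miR-504-5p: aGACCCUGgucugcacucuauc
hsa-miR-504-3p: gGGAGUGCagggcaggguuuc
The miR-489-3p sequence lies at chr7:93483947-93483968 on the minus strand, and both miR-504 arms lie on the minus strand of chromosome X, the 5p arm at chrX:138667760-138667781 and the 3p arm at chrX:138667724-138667744. The 3 seeds differ, and miR-489-3p was the only mature miRNA (1) in the RefSeq table with its seed.

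PTPN11 read far lower after miR-489 than after miR-504 in both lines on its pair of bright probes. Among its partners, GRB10 was lower on both probes, and GRB2 was somewhat higher on all 3 probes without passing the test. NRAS, HRAS and SHC1 differed little between the miRNAs. FRS2 was read near background, its ratios against control depended on the processing, and its difference had a wider interval than theirs. GAB1 and SOS1 gave no usable control signal. In limma fitted on all 20914 probes whose control signal was well above background on the 4 arrays, 3 of the 14 member probes tested were called lower after miR-489 than after miR-504 (Benjamini-Hochberg adjusted p under 0.05), where 0.784% of all probes were: 2 of PTPN11 and 1 of GRB10. As higher, limma called 0 of 14, where 0.316% of all probes were. At an unadjusted p under 0.05 there were 8 member probes, 5 lower (3 of PTPN11 and both of GRB10) and 3 higher (all of GRB2), against 3869 of the 20914 probes. The median difference was -0.03 over the 14 member probes and 0.02 over all probes tested. PTPN11 and GRB10 are on the study's own list of genes reduced by miR-489, drawn from the FaDu miR-489 array that enters these counts. Their direction in these counts is therefore not independent evidence, although HSC3 was not used for that list. The paper lists predicted miR-489 target sites for both genes. Whether GRB10 fell through its own sites or along with PTPN11 was not tested.

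**Figure D1:**
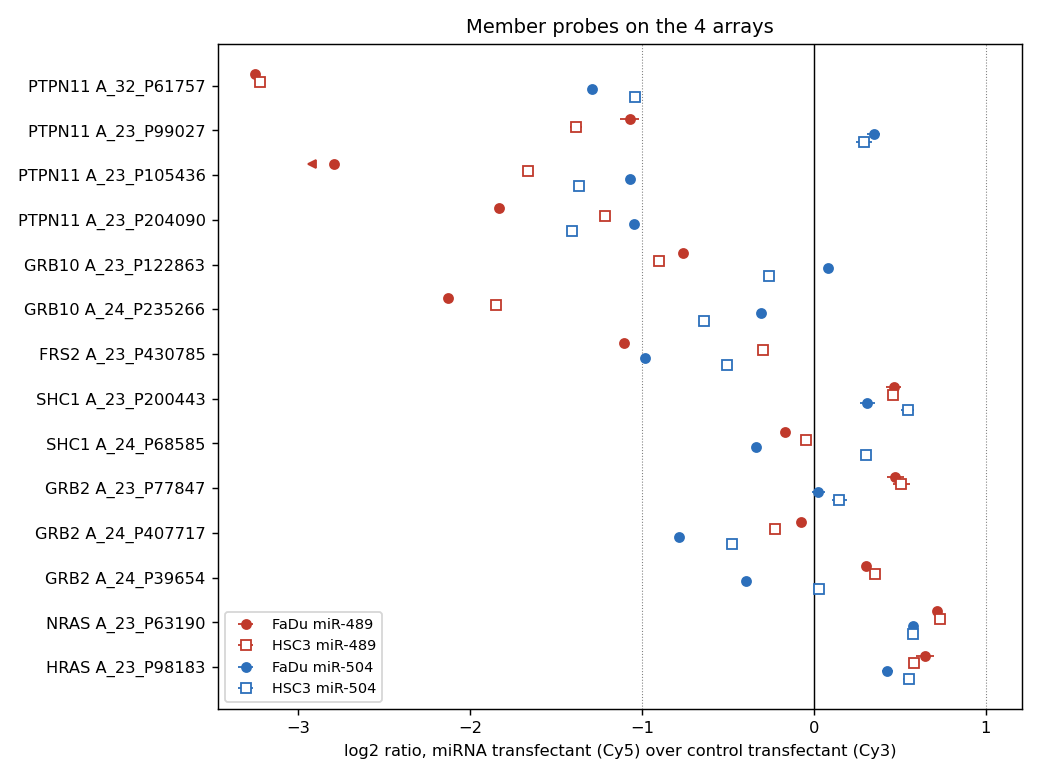
Log2 ratio of miRNA transfectant (Cy5) over control transfectant (Cy3), centred on each array's median, for the 14 member probes tested. Filled circles are FaDu and open squares HSC3, red miR-489 and blue miR-504; bars are the SD of replicate spots where a probe had 10, the arrow marks a bound, and dotted lines mark a 2-fold change. The red points lie left of the blue ones in both lines for 3 PTPN11 probes (1 of them with a bound) and both GRB10 probes, and right of them for all 3 GRB2 probes.

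Values below are background-subtracted median spot signals in intensity units, and log2 ratios centred on the median of each array. The PTPN11 probe A_32_P61757 (NM_002834, chromosome 12), the brightest of the 4, had control signals of 12054 and 12740 on the FaDu miR-489 and miR-504 arrays and of 14595 and 15874 on the HSC3 arrays. In the transfectants the signals were 1892.5 after miR-489 and 8184 after miR-504 in FaDu, and 2346 and 10502 in HSC3. After centring, PTPN11 stood at 10.5% of control in FaDu and 10.7% in HSC3 after miR-489 (log2 ratios -3.25 and -3.22), and at 40.9% and 48.6% after miR-504 (-1.29 and -1.04). The probe was thus low on all 4 arrays, and lowest on both miR-489 arrays, without overlap between the miRNAs. The log2 difference, miR-489 minus miR-504, was -1.96 in FaDu (3.90-fold lower) and -2.18 in HSC3 (4.53-fold lower), with a mean of -2.07 ± 0.13 (SE, n = 2 lines; limma, adjusted p = 0.0304). In RNA of a whole culture, fewer cells that express a gene and less RNA per cell cannot be told apart.

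The probe A_23_P99027, spotted 10 times, was the PTPN11 probe with replicate spots. Control signals averaged 2366.4 and 2624 on the FaDu miR-489 and miR-504 arrays, and 2771.4 and 3582.2 on the HSC3 arrays. Transfectant signals were 1681.4 and 5228.4 in FaDu, and 1592.8 and 5962 in HSC3. Log2 ratios after miR-489 were -1.07 ± 0.055 in FaDu and -1.38 ± 0.034 in HSC3 (SD over 10 spots), and after miR-504 they were 0.35 ± 0.039 and 0.29 ± 0.047. Here PTPN11 was below control after miR-489 and, if anything, above it after miR-504 (limma, miR-504 against control, adjusted p = 0.0502), unlike at A_32_P61757. Between the miRNAs it was 2.67-fold lower in FaDu and 3.19-fold lower in HSC3, a mean log2 difference of -1.54 ± 0.14 (SE, n = 2; limma, adjusted p = 0.0343).

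Both dim PTPN11 probes added less. A_23_P105436 had control signals of 81 to 128.5, and in FaDu after miR-489 its Cy5 signal (17.5) did not clear the background. The log2 ratio there, -2.79 (6.92-fold below control), is marked as a bound, but it holds only for the main processing. That size depended on the processing, and over the alternatives this ratio ran from -2.79 to -0.95, and the difference between the miRNAs from -1.57 to -0.23. Its other log2 ratios were -1.66 on the HSC3 miR-489 array, and -1.07 (FaDu) and -1.36 (HSC3) after miR-504. A_23_P204090, with control signals of 56 to 70, read -1.83 and -1.22 after miR-489 and -1.05 and -1.41 after miR-504, so that the miRNAs overlapped. For these probes the mean difference was -1.01 ± 0.38 (FaDu value a bound; limma, adjusted p = 0.253) and -0.30 ± 0.24 (adjusted p = 0.583).

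All of the PTPN11 probes were listed under the same accession, at different places. Taken from A_32_P61757, the 3′-most in the listed coordinates, A_23_P99027 lay 697 bases, A_23_P204090 3548 bases and A_23_P105436 31942 bases upstream on the genome. The files name no genome build, so the coordinates themselves are not printed. On every array A_32_P61757 read lower than A_23_P99027: the log2 ratio of the first minus that of the second was -2.18 (FaDu) and -1.84 (HSC3) after miR-489 and -1.64 and -1.33 after miR-504. The size of the PTPN11 ratio against control therefore depended on the probe. Its direction after miR-504 depended on it too, being negative on 3 probes and positive on A_23_P99027.

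**Figure D2:**
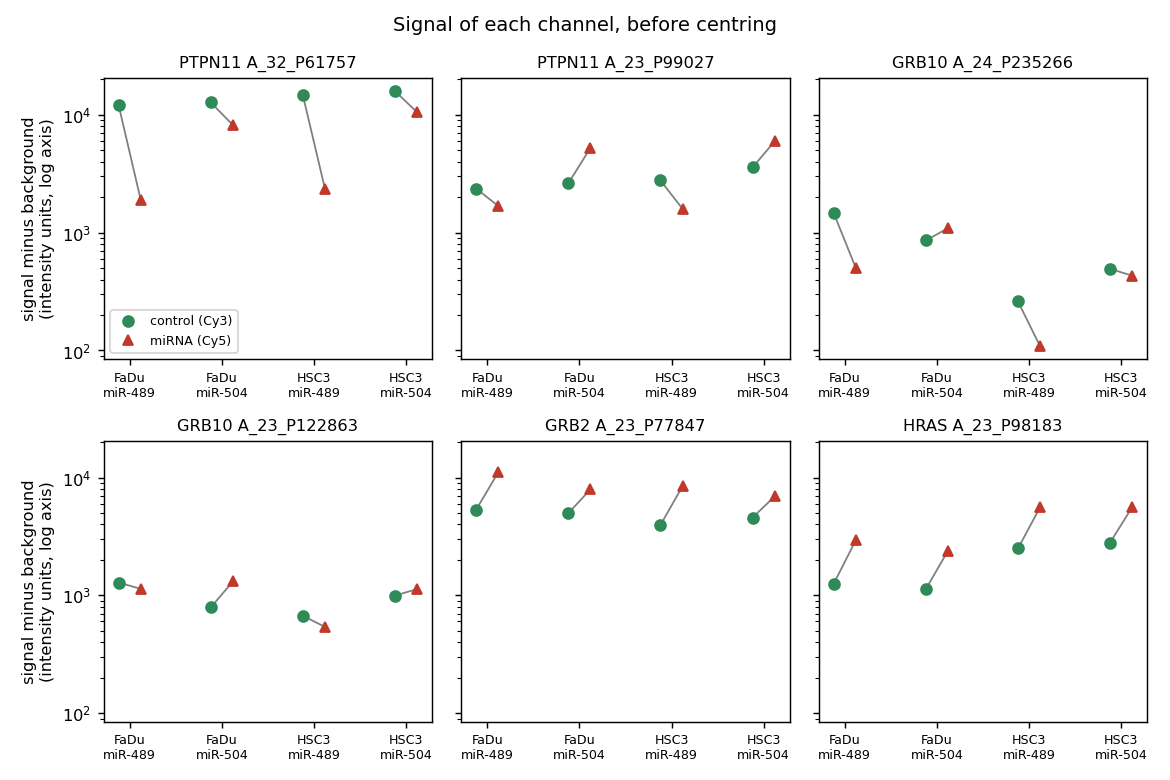
Background-subtracted signal of each channel (intensity units, log axis, before centring) on the 4 arrays, for 6 probes of PTPN11, GRB10, GRB2 and HRAS; green circles are control transfectants (Cy3), red triangles miRNA transfectants (Cy5), and a line joins the channels of an array. The PTPN11 control signals hardly move between arrays while the Cy5 signal is low after miR-489; the GRB10 control signals differ between the arrays of a line.

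GRB10 was the only partner with a probe called between the miRNAs. On A_24_P235266 (NM_001001555, chromosome 7) the control signals were 1464.5 and 858 on the FaDu miR-489 and miR-504 arrays, and 260.5 and 493 on the HSC3 arrays. The transfectant signals were 501 and 1090 in FaDu, and 108.5 and 431 in HSC3. The log2 ratios were -2.13 in FaDu and -1.85 in HSC3 after miR-489, and -0.31 and -0.64 after miR-504, with no overlap. GRB10 was thereby 3.54-fold lower after miR-489 than after miR-504 in FaDu and 2.31-fold lower in HSC3, a mean log2 difference of -1.52 ± 0.17 (SE, n = 2; limma, adjusted p = 0.0395).

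The other GRB10 probe, A_23_P122863, lay 65 bases away in the listed coordinates and showed a smaller difference of the same direction. Its log2 ratios were -0.76 (FaDu) and -0.90 (HSC3) after miR-489, and 0.081 and -0.26 after miR-504. The mean difference was -0.74 ± 0.16 (limma, adjusted p = 0.109). A_24_P235266 was below A_23_P122863 on all 4 arrays, with a gap in log2 ratio of -1.37 (FaDu) and -0.95 (HSC3) after miR-489 and of -0.39 and -0.38 after miR-504.

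For GRB10, the control channel also differed between arrays. The centred control level of A_24_P235266 was 0.77 higher on the FaDu miR-489 array than on the FaDu miR-504 array, and 0.63 lower in HSC3 (difference -0.63), although both arrays of a line carried control transfectants. Gaps of at least 0.5 (log2) were seen at 6.39% of all probes tested in FaDu and 11.8% in HSC3, and those of the bright PTPN11 probes were 0.17 or less. With the Cy5 channels alone and the line as a block, an alternative added after seeing the data, GRB10 differed by -1.11 in FaDu and -1.88 in HSC3 (SE of the mean difference 0.22, limma adjusted p = 0.0592), so its call was lost. PTPN11 kept its calls there, with -2.08 ± 0.15 on A_32_P61757 (adjusted p = 0.0382) and -1.71 ± 0.15 on A_23_P99027 (adjusted p = 0.0387).

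GRB2, the adaptor that carries SOS1 to receptors, was on the other side. Its probe A_23_P77847 (NM_002086, chromosome 17, 10 spots) had log2 ratios of 0.47 ± 0.051 in FaDu and 0.51 ± 0.049 in HSC3 after miR-489 (SD over spots), and 0.026 ± 0.037 and 0.15 ± 0.046 after miR-504. A_24_P407717 read -0.076 and -0.23 after miR-489, and -0.79 and -0.48 after miR-504. A_24_P39654 read 0.30 and 0.36 after miR-489, and -0.39 and 0.029 after miR-504.
GRB2 was therefore higher after miR-489 than after miR-504 in both lines on each of the 3 probes, by 1.28- to 1.36-fold on A_23_P77847 and by up to 1.64-fold on A_24_P407717 in FaDu. The mean log2 differences were 0.40 ± 0.11, 0.48 ± 0.15 and 0.51 ± 0.17, in the order above. None passed limma's threshold (adjusted p = 0.171, 0.197 and 0.214), and the probes measure the same gene in the same 4 hybridisations, so they are not separate evidence. Against control, the reading of GRB2 depended on the probe. After miR-489 the mean log2 ratio was 0.49 on A_23_P77847 (limma, adjusted p = 0.005), -0.15 on A_24_P407717 (adjusted p = 0.267) and 0.33 on A_24_P39654 (adjusted p = 0.064). After miR-504 the means were 0.087, -0.63 and -0.18 in the same order, and only A_24_P407717 was called (adjusted p = 0.008). Any dye effect stays in these ratios.

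SHC1, the adaptor that links receptors to GRB2, differed little between the miRNAs. A_23_P200443 (10 spots) had log2 ratios of 0.46 in FaDu and 0.46 in HSC3 after miR-489, and 0.31 and 0.54 after miR-504. The groups overlapped, and the mean difference was 0.035 (95% interval -0.29 to 0.36; limma, adjusted p = 0.922). The dimmer A_24_P68585, listed under another SHC1 transcript (NM_183001), read -0.17 and -0.047 after miR-489, and -0.34 and 0.31 after miR-504. Its difference was -0.09 (95% interval -0.67 to 0.49; adjusted p = 0.884).

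FRS2, the docking protein of FGF receptors, was measured near background, with control signals of 34 to 49. Its log2 ratios were -1.11 in FaDu and -0.29 in HSC3 after miR-489, and -0.98 and -0.51 after miR-504. These sizes depended on the processing: over the alternatives the ratios ran from -1.11 to -0.14 (FaDu) and -0.53 to 0.18 (HSC3) after miR-489, and from -0.99 to -0.12 and -0.51 to 0.045 after miR-504. By the values first given, FRS2 was lower in FaDu than in HSC3 after either miRNA, and the miRNAs overlapped, with a difference of 0.044 (95% interval -0.74 to 0.83; limma, adjusted p = 0.961). That interval leaves out a 2-fold change in the main processing, but a difference inside it could not be told from 0 with this probe.

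GAB1, the main docking site of SHP2, could not be followed. Its 3 probes had control signals of 5 to 33.5, none well above background on any array. Only A_23_P18505 had a Cy5 signal well above background, on all 4 arrays (23 to 41). SOS1, the exchange factor, had control signals of 16 to 31 and transfectant signals of 8 to 16.5 on its probe A_23_P343808, none well above background. No ratio is given for either gene.

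NRAS and HRAS, the GTPases at the end of this chain, were higher than control by similar amounts after both miRNAs. NRAS (A_23_P63190) had log2 ratios of 0.72 in FaDu and 0.73 in HSC3 after miR-489, and 0.57 and 0.58 after miR-504. HRAS (A_23_P98183, 10 spots) read 0.65 and 0.58 after miR-489, and 0.43 and 0.55 after miR-504. On both probes the miR-489 arrays stood above the miR-504 arrays, by little: the mean differences were 0.15 ± 0.11 for NRAS (95% interval -0.12 to 0.42; limma, adjusted p = 0.517) and 0.12 ± 0.11 for HRAS (-0.17 to 0.42; adjusted p = 0.626). These intervals leave out a 2-fold change between the miRNAs in either direction for NRAS and HRAS, and for SHC1, but a smaller one could go unseen.

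**Figure D3:**
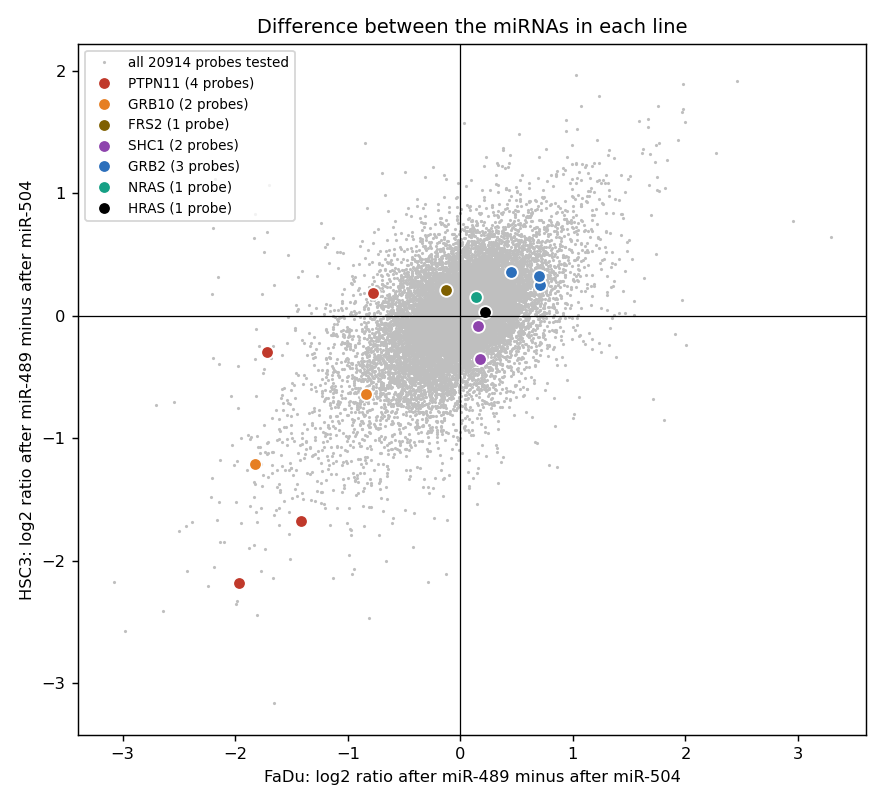
Log2 ratio after miR-489 minus that after miR-504 in FaDu (horizontal) and in HSC3 (vertical) for the 20914 probes tested (grey) and the 14 member probes (coloured by gene). The bright PTPN11 and both GRB10 probes lie at the lower left, the 3 GRB2 probes at the upper right, and NRAS, HRAS, SHC1 and FRS2 near the centre.

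Against the control transfectants, limma called a large share of all probes. After miR-489, 7 of 14 member probes were called lower than control (4 of PTPN11, 2 of GRB10 and FRS2), where 26.6% of all probes were, and 4 were called higher (GRB2 A_23_P77847, SHC1 A_23_P200443, NRAS and HRAS), where 30.5% were. PTPN11 and GRB10, on the study's list from the FaDu miR-489 array, gave all the lower calls but that of FRS2. Repeated probes of a gene are not separate evidence, so these shares, and the 2-fold ones below, are no result about the partners as a set. After miR-504, 6 of 14 were called lower (3 of PTPN11, GRB10 A_24_P235266, GRB2 A_24_P407717 and FRS2), against 23.4% of all probes, and 3 were called higher (SHC1 A_23_P200443, NRAS and HRAS), against 26.2%. The rises of NRAS, HRAS and SHC1 A_23_P200443 were shared by both miRNAs and were smaller than the ratio of GAPDH on the same arrays. They lay within the range of the 4 ACTB probes, whose mean log2 ratios were 0.12 to 1.03 after miR-489 and -0.014 to 0.91 after miR-504. A dye effect and a change of the level cannot be told apart in these rises, since each array carried the control in Cy3.

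By size alone, the FaDu miR-489 array had 6 of 14 member probes at least 2-fold lower than control (4 of PTPN11, GRB10 A_24_P235266 and FRS2), where 8.01% of all probes were. On the HSC3 miR-489 array there were 5 of 14 (the same without FRS2), against 7.64%. Each miR-504 array had 3 of 14, all of PTPN11, against 5.52% in FaDu and 4.67% in HSC3. At least 2-fold higher than control there were 0 member probes on any array, where 2.88% of all probes were in FaDu and 2.77% in HSC3 after miR-489, and 2.29% and 1.89% after miR-504.
Within a line, miR-489 was at least 2-fold below miR-504 at 4 of 14 member probes in FaDu (3 of PTPN11 and GRB10 A_24_P235266), against 2.44% of all probes, and at 3 of 14 in HSC3 (2 of PTPN11 and the same GRB10 probe), against 1.79%. At least 2-fold above miR-504 it had 0 member probes in either line, against 1.14% in FaDu and 0.69% in HSC3.

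The wider pathway was read from a list of 47 further genes that act around RAS, and 45 were found on the array (SHC2 and SOS2 were not under those symbols), with 74 probes, of which 40 probes of 31 genes could be tested. Between the miRNAs limma called 0 of 40 in either direction, where 1.1% of all probes were called, and 9 of 40 had an unadjusted p under 0.05, where 3869 of 20914 did. These counts are near the background and are no result about the pathway. The median log2 difference was 0.06 over the list and 0.02 over all probes. With the line as a replicate block, DOK1 (adjusted p = 0.0398) and CBL (adjusted p = 0.0473) were called higher, 2 of 40, where 0.937% of all probes were.
By role, the median difference was 0.13 over 13 probes of adaptors and docking proteins, 0.032 over 6 probes of GTPase-activating proteins, -0.05 over 9 probes of kinases and scaffolds, and 0.024 over 6 probes of other tyrosine phosphatases. None of the 7 probes of exchange factors passed the background limit in the control channel of all arrays, so none was tested.

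Among the list probes with the largest differences were those of SHOC2, DOK1, CBL and RASA1. SHOC2, a scaffold that helps RAS activate RAF, had log2 ratios of -1.43 (FaDu) and -0.70 (HSC3) after miR-489 and of 0.16 and -0.03 after miR-504, without overlap (difference -1.13 ± 0.26; limma, adjusted p = 0.122). DOK1, a docking protein that recruits a RAS inhibitor, read 0.69 and 0.45 after miR-489 and -0.39 and -0.32 after miR-504 (difference 0.93 ± 0.13; adjusted p = 0.0557). CBL, a ubiquitin ligase that turns receptors over, read 0.85 and 0.77 after miR-489 and -0.04 and 0.071 after miR-504 (difference 0.79 ± 0.11; adjusted p = 0.0565).
RASA1, which switches RAS off, stood at -0.0082 and 0.24 after miR-489 and at 0.58 and 0.59 after miR-504 (difference -0.47 ± 0.13; adjusted p = 0.172). On each of these probes the miRNAs did not overlap, but they were picked for their size and none passed the test.

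**Figure D4:**
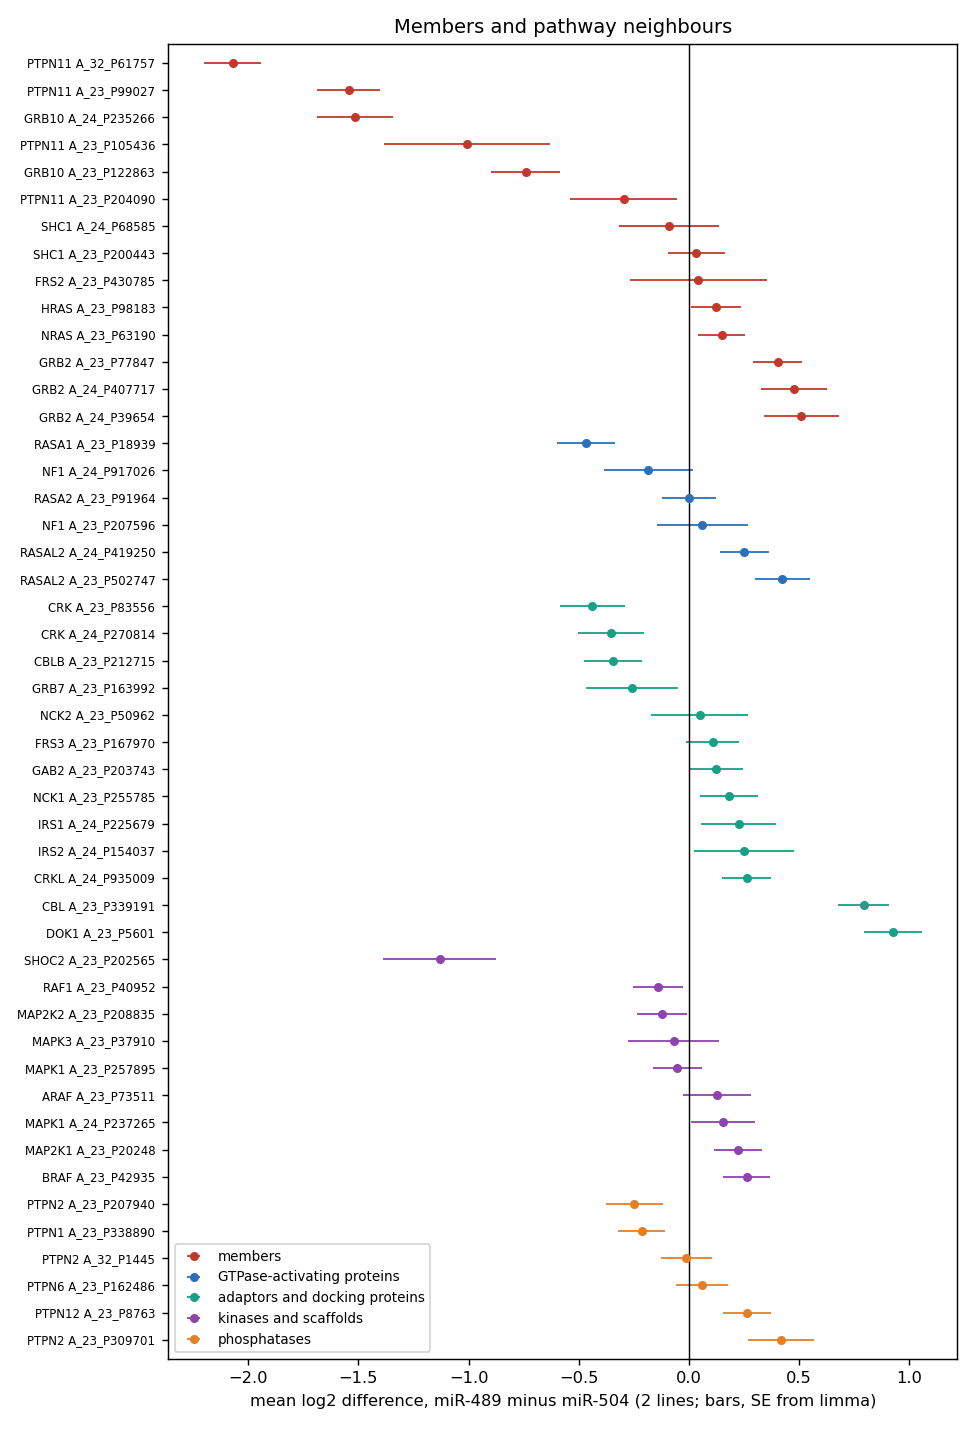
Mean log2 difference, miR-489 minus miR-504, over both lines (points) with its SE from limma (bars), for the 14 member probes and the pathway probes tested in 4 of the roles (GTPase-activating proteins, adaptors and docking proteins, kinases and scaffolds, and phosphatases). Of the probes shown, 2 of PTPN11 and 1 of GRB10 lie furthest to the left, followed by SHOC2 (-1.13). Among the pathway probes CBL (0.79) and DOK1 (0.93) lie furthest to the right.

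The control transfectants also showed how the members' levels differed between the lines, as a description of 2 control channels a line. HRAS was 1.97-fold higher in HSC3 than in FaDu (0.98 on the log2 scale), with gaps of 0.16 and 0.12 between the arrays of a line. GRB10 was lower in HSC3, 3.56-fold on A_24_P235266 (-1.83) and 1.40-fold on A_23_P122863 (-0.49), although the arrays of a line lay up to 0.77 apart. PTPN11 was close in both lines, between 1.02- and 1.20-fold higher in HSC3 over its 4 probes, and the lines overlapped on A_32_P61757 and A_23_P204090. For the other members tested the lines differed by 1.18- to 1.44-fold, with FRS2 and SHC1 higher in HSC3 and NRAS lower. The GRB2 probes disagreed: HSC3 minus FaDu was -0.43 on A_24_P407717 and -0.46 on A_23_P77847, but 0.26 on A_24_P39654 (log2).

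Probes were also ranked by the Euclidean distance of their log2 ratios over the 4 arrays from those of PTPN11 A_32_P61757. The nearest, named below, include no partner probe, but this cannot tell whether the partners followed PTPN11. Partners hold few of the probes on the array, and PTPN11 A_23_P99027 was not among the nearest either. Its log2 ratios were -1.07 (FaDu) and -1.38 (HSC3) after miR-489, and 0.35 and 0.29 after miR-504. CTDSPL2, which encodes a protein of the CTD small phosphatase-like family, was nearest (distance 0.49), with -3.53 and -3.07 after miR-489 and -1.10 and -1.36 after miR-504 in FaDu and HSC3. The next were BC041955 (0.66, with a bound on 3 arrays), ALS2CR13 (0.83, with a bound on 1 array), THC2278239 (1.01) and ENST00000376611 (1.17), named as on the array. CTDSPL2 is also on the study's own list of genes reduced by miR-489, drawn from the FaDu miR-489 array, so its nearness is not independent evidence.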

How the data were processed

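Total RNA of FaDu and HSC3 transfectants was hybridised to 4 two-colour Agilent arrays. The deposited intensities are spot and local background signals of each channel, made with Feature Extraction 9.5.3.1 per the file headers, with well-above-background, outlier and saturation marks. The deposited log10 ratios, dye-normalised by that software, were identical in the scanner files and the series table (largest difference 0) and served as an alternative.

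Log2 ratios were computed from median spot signals minus median local background, with outlier spots left out (118 to 137 of an array), centred on the median over spots well above background in both channels (0.45 to 0.65 removed), and averaged over spots of a probe. A transfectant signal not well above background was set to the higher of itself and the lowest well-above signal of the array. The number of arrays (4) limits the precision. Fits used limma 3.58.1 in R 4.3.3 with 2 residual degrees of freedom (prior 3.21 degrees of freedom, prior SD 0.135), over 20914 probes, and Benjamini-Hochberg adjustment over all of them. Figures used matplotlib 3.10.9. The miR-489 and miR-504 arrays with the same number were of the same line, which pairs them: their deviations correlated at r = 0.14, and the differences between the miRNAs in FaDu and HSC3 at r = 0.55, both across probes, which are not independent. On simulated data for miR-489 against miR-504 over 20914 probes, limma recovered 32 of 100 probes changed by 1 and 94 of 100 changed by 2 on the log2 scale, with 7 false calls. The simulated errors were independent and normal, with variances from limma's fitted prior and no effect of the line. The recovery thus tests the code under the model's own assumptions, not what these arrays can detect.

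Alternatives were normexp (offset 50), no background subtraction, mean signals, loess (span 0.3), both together, the deposited ratio, no filter, a filter on both channels, the line as a block, leaving out each array, a 1.5-fold limit and, added after seeing the data, the Cy5 channels alone. Members and lists were chosen with earlier results of these data known. Named besides the members were the 5 pathway probes with the largest difference between the miRNAs, as no pathway probe was called (1 of them is not reported here), GAPDH and ACTB, and the 5 genes nearest to PTPN11.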

Additional observations from a re-analysis of the deposited data

Results flagged for a closer look

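SHC1 A_24_P68585 stood on opposite sides of the control after miR-504, with a log2 ratio of -0.34 in FaDu and of 0.31 in HSC3, each larger than 2 SDs of a difference between a pair of replicate spots on the array where those spread most (0.3046). The HSC3 value was just past that limit, which covers spot noise and not the spread between samples, and over the alternatives the ratios ran from -0.34 to -0.073 in FaDu and from 0.19 to 0.34 in HSC3. With 1 array a line the difference between the lines was not tested. This probe, with 1 spot, had control signals of 87 to 150, and the other SHC1 probe, A_23_P200443, read 0.31 and 0.54 on the same arrays.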

How the results depend on the processing

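The differences of PTPN11 A_32_P61757 (-2.19 to -1.95), PTPN11 A_23_P99027 (-1.71 to -1.39) and GRB10 A_24_P235266 (-1.68 to -1.23) stayed negative under every alternative run, and all 3 GRB2 probes stayed positive. Their calls did not all stay: of the member probes called between the miRNAs, 3 became 0 without the filter on dim probes (0 of 40981 probes called, 2671 at an unadjusted p under 0.05) and 0 whenever any array was left out (0 to 0; adjusted p 0.084 to 0.258 for those probes). A fit without 1 array leaves a lone sample that is assumed to vary like the others. With cell line as a replicate block the 3 calls were the same probes (adjusted p 0.0171, 0.0185 and 0.0251), and 2 of the pathway probes were called. The normexp and loess setting added GRB10 A_23_P122863 (adjusted p = 0.036) and the deposited ratio PTPN11 A_23_P105436 (adjusted p = 0.0495). Calls after miR-504 against control went from 9 to 2 without the FaDu miR-504 array and to 3 without the HSC3 one, and were 10 without either miR-489 array. Pathway calls went from 0 to 3 with normexp, 2 without background subtraction, 1 with loess, 3 with normexp and loess, 1 with the deposited ratio and 1 with Cy5 alone and the line as a replicate block, which changes both choices together.

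Among all probes, the 230 calls between the miRNAs became 663 with normexp, 498 without background subtraction, 350 with loess, 782 with normexp and loess, 390 with the deposited ratio and 578 with the block.

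Member probes at least 2-fold lower than control went from 6 to 3 (FaDu miR-489: normexp, no background subtraction, normexp and loess), from 3 to 1 (FaDu miR-504: those and loess) or 5 (no filter; 1.5-fold limit), from 5 to 3 (HSC3 miR-489: normexp with or without loess), and from 3 to 1 (HSC3 miR-504: normexp with or without loess), 0 (no background subtraction) or 5 (no filter). At least 2-fold higher, 0 became 1 with the deposited ratio on both miR-489 arrays, and 2 (FaDu) and 1 (HSC3) at 1.5-fold. Small differences turned sign: SHC1 A_23_P200443 was -0.0048 with loess, -0.0087 with normexp and loess, -0.082 without the FaDu miR-504 array and -0.043 with Cy5 alone and the block; FRS2 was -0.085 without background subtraction, -0.11 with the deposited ratio, -0.19 without the FaDu miR-504 array and -0.36 without the HSC3 miR-489 array. SHC1 A_24_P68585 was 0.23 without the HSC3 miR-504 array, and PTPN11 A_23_P204090 was 0.010 without the FaDu miR-489 array. With each array left out in turn, the highest or lowest values at the other end were 0.15 (SHC1 A_23_P200443), 0.45 (FRS2), -0.41 (SHC1 A_24_P68585) and -0.60 (PTPN11 A_23_P204090). The cause of these changes was not tested. Dim probes, with signals near background, limit what FRS2, GAB1, SOS1 and the dim PTPN11 probes can show.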
